A study of Mus musculus with 16 samples.

Results

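Spi1 binding was compared between 3 T1 and 3 T2 peak lists from WT-iMOS MPP3 cells, 6 of the 16 libraries of the series. The lists held 48953 of the series' 131939 peaks. Overlapping peaks of the 6 lists (at least 1 bp in common) were merged into 18522 regions on assembled chromosomes, and the regions described here are the 144 with a peak in all 3 T1 and no T2 library (T1-only) and the 105 with a peak in all 3 T2 and no T1 library (T2-only). MPP3 cells, sorted from mouse bone marrow, are labelled as haematopoietic progenitors. All groups used here carry the labels 3m and MPP3 and differ in target, in WT-iMOS or KO-iMOS, and in T1 or T2. The labels do not say what iMOS, 3m, T1 or T2 stand for, which gene KO-iMOS lacks, or whether replicates came from separate mice, so p-values measure only the spread between these libraries. Peak names begin with PWG in the T1 lists and PMG in the T2 lists, and with PWT and PKO in the T1 and T2 lists of KO-iMOS; the labels do not explain these either. The series states its purpose as the role of Bcl11a in MPP3 cells. Bcl11a libraries from WT-iMOS (3 T1, 3 T2) and Spi1 libraries from KO-iMOS (2 T1, 2 T2) had no part in the choice of regions and are used below as separate readouts of them. The assay measures DNA, so the MPP3 label could not be checked against marker expression.

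Spi1, also called PU.1, is an ETS family transcription factor that binds DNA sites with a GGAA core and is required for the myeloid and lymphoid lineages. MPP3 are multipotent progenitors that feed mainly the granulocyte and monocyte lineages, where Spi1 binds both promoters and distal enhancers. Bcl11a is a zinc finger repressor known for silencing fetal globin genes and for its role in B cell and stem cell development. CUT&Tag directs a transposase to the bound factor with an antibody, so a peak marks DNA that was cut near it.

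Of the T1-only regions, 12 of 140 on chromosomes with promoter sequence (8.57%) touched a promoter window, taken as 250 bases before to 50 after a RefSeq gene start on GRCm38.p6. The T2-only regions touched one in 9 of 104 cases (8.65%). The T1-only promoters included those of Yy1 and Ctcf, both zinc finger DNA-binding proteins, of Tardbp, an RNA-binding protein, and of Eif2s3x, a translation initiation factor. Among the T2-only promoters were those of Il12rb2, a chain of the interleukin 12 receptor, of Chst11, a chondroitin sulfotransferase, of Arhgap25, a GTPase-activating protein of blood cells, and of Tle6, a Groucho-related corepressor. With lists cut to equal length, described below, T2-only regions still touched the promoters of Chst11 and Arhgap25. Those of Yy1, Ctcf, Tardbp, Eif2s3x, Il12rb2 and Tle6 were then touched by no T1-only or T2-only region. The 250 bases before the start of Yy1 and of Il12rb2 are shown because their regions lay on opposite sides in the full lists. Each GGAA or TTCC (the ETS core on either strand) is in capitals.

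Yy1, T1-only, chr12:108793047-108793296, plus strand: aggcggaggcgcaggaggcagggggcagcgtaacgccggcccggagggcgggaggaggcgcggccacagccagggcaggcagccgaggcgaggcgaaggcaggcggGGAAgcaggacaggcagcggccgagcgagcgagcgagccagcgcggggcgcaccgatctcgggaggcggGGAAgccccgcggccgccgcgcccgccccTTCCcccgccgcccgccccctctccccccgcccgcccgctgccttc
Il12rb2, T2-only, chr6:67376189-67376438, minus strand: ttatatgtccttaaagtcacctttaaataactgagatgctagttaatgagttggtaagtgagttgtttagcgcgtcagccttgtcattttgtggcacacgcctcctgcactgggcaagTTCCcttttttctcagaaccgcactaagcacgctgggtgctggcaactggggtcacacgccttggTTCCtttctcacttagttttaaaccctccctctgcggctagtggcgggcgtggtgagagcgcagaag

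The Yy1 stretch held 3 such cores, 36 CpG and 81.2% G or C, and the Il12rb2 stretch 2 cores, 10 CpG and 50% G or C. A core of 4 bases is common: 93.4% of all 32851 promoter windows held at least 1 in the same 250 bases, with a median of 3. A longer form, GAGGAAGT or its reverse complement ACTTCCTC, resembles the sites that Spi1 binds and occurred in 1052 promoter windows (3.20%). It was in 0 of 15 windows touched by T1-only regions and in 1 of 10 touched by T2-only regions, that of Arhgap25. Of the 704 windows touched by regions called in all 6 libraries, 96 held it (13.6%). With lists cut to equal length, described below, a touched window held it for 1 of 17 T1-only regions on promoters and for 6 of 18 T2-only ones, and for 73 of the 420 regions on promoters called in all 6 libraries. Windows of alternative starts overlap, so regions are counted here by the windows they touch, and the match itself can lie outside the called region, as 1 of the T2-only ones did. The matches that lie before a gene start are shown with up to 30 bases on either side, ending at the start, in the orientation of the gene and with the motif in capitals.

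Arhgap25, T2-only, chr6:87496328-87496368, minus strand: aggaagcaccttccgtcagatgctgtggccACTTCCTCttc
C1qc, T2-only at equal length, chr4:136893072-136893139, minus strand: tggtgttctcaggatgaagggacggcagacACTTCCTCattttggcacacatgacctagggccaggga
Havcr2, T2-only at equal length, chr11:46454893-46454930, plus strand: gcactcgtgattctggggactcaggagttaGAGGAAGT
Cox10, T2-only at equal length, chr11:64079473-64079516, minus strand: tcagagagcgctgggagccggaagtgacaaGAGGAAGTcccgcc
Gm31619, T2-only at equal length, chr2:167589484-167589531, minus strand: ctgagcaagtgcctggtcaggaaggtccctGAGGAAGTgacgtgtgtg
Atp8b4, T1-only at equal length, chr2:126491631-126491698, minus strand: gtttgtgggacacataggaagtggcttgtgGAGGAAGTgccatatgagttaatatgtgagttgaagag

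C1qc encodes a chain of complement C1q made by macrophages, Havcr2 the immune receptor TIM-3, Cox10 an enzyme of haem A synthesis, and Atp8b4 a phospholipid-transporting ATPase. The sixth T2-only match was at Arpc1b, a subunit of the actin-nucleating Arp2/3 complex, just after its gene start and outside the called region. The Arhgap25 region had no T1 peak in the full lists either, and its deposited fold enrichment over the peak caller's local background was 7.07, 7.03 and 5.80 in T2 replicates 1 to 3. The regions at C1qc, Havcr2, Cox10, Gm31619 and Arpc1b had a T1 peak in the full lists that fell outside the cut. The Atp8b4 region likewise had a T2 peak there. A match is a description of the letters and does not show that Spi1 binds there.

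The 6 lists differed more in length within a group than between the groups. T1 replicates 1 to 3 held 10841, 7120 and 6795 peaks and T2 replicates 1 to 3 held 12261, 6868 and 5068, 8252 ± 2248 against 8066 ± 3743 (mean ± SD, n = 3; exact permutation p = 0.90, two-sided, where 0.1 is the smallest p that 3 against 3 allows). The deposited files hold no read counts, so depth is unknown. Peaks within 1 kb of a gene boundary, by summit, made up 21.2% ± 3.28 of T1 and 21.1% ± 2.91 of T2 lists (n = 3, exact permutation p = 0.90). Shares inside genes (50.4% and 50.8%), over 50 kb from any gene (15.1% and 15.6%) and on promoter windows (17.2% in both) also differed by less than the spread between replicates. The median fold enrichment of a list was 5.46 ± 0.192 in T1 and 5.78 ± 0.0848 in T2, and every T2 list lay above every T1 list (n = 3, exact permutation p = 0.1, Benjamini-Hochberg adjusted p = 0.90 over 9 measures). Pairs of lists from the same group shared 0.362 of their covered bases on average (Jaccard index, 6 pairs) and pairs from different groups 0.353 (9 pairs) (one-sided exact permutation p = 0.40), so no separation of T1 from T2 was detectable by this measure. With lists cut to equal length, described below, the shares were 0.432 within and 0.403 between groups (one-sided exact permutation p = 0.30, smallest possible 0.1). In the full lists, pairs of T1 and T2 lists with the same replicate number shared 0.393 (3 pairs) and those with different numbers 0.332 (6 pairs).

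**Figure D1:**
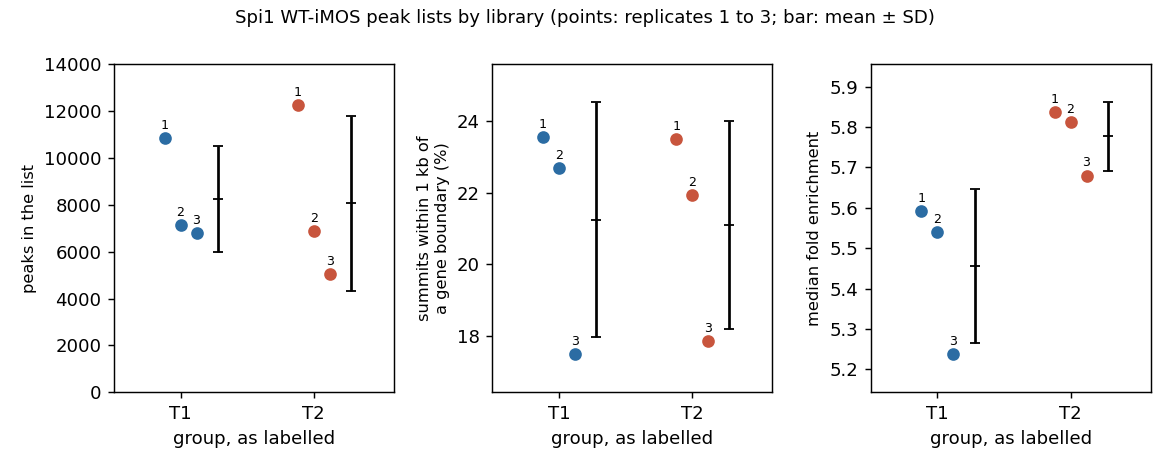
Number of peaks, share of summits within 1 kb of a gene boundary and median fold enrichment of each Spi1 WT-iMOS list, with the mean and SD beside the points (n = 3 a group). T1 and T2 overlap in peak number and in share, while in median fold enrichment the 3 T2 lists lie above the 3 T1 lists; the vertical axes of share and fold do not start at 0.

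Regions that all libraries of one side shared and the other side lacked were few. The T1-only regions were 0.777% and the T2-only regions 0.567% of all merged regions, against 2406 regions called in all 6 libraries. Among the 2021 regions called in exactly 3 libraries, 7.13% were T1-only and 5.2% T2-only, and the rest were split over both sides. Fisher's exact test for single regions could not go below p = 0.1, and 0 regions passed at 0.05 either before or after Benjamini-Hochberg adjustment. Just outside the rule lay 465 regions with 3 T1 libraries and 1 T2 library, 261 with 3 T2 libraries and 1 T1 library, 641 with 2 T1 libraries alone and 640 with 2 T2 libraries alone. Leaving a library out relaxes the rule. The T2-only count rose to 303 without T1 replicate 1, to 240 without T2 replicate 2 and to 572 without T2 replicate 3, the shortest list. The T1-only count rose to 241, 383 and 451 without T1 replicates 1, 2 and 3, and to 517 without T2 replicate 1, the longest list.

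To hold list length equal, each list was cut to its 4926 peaks with the highest deposited −log10 p. This gave 10140 regions, of which 153 were T1-only (1.51%) and 164 T2-only (1.62%), so the larger count moved from the T1 to the T2 side. They made up 13.4% and 14.4% of the 1142 regions called in exactly 3 libraries. The cut changed which regions were called: 47 T1-only regions stood in both versions (32.6% of the full-list set and 30.7% of the equal-length set), as did 52 T2-only regions (49.5% and 31.7%). In the full lists, 106 of the 153 T1-only regions of equal-length lists had a T2 peak, and 112 of the 164 T2-only regions had a T1 peak. These are the regions that the cut added, as its construction requires: their peaks of the other side ranked below it.

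**Figure D2:**
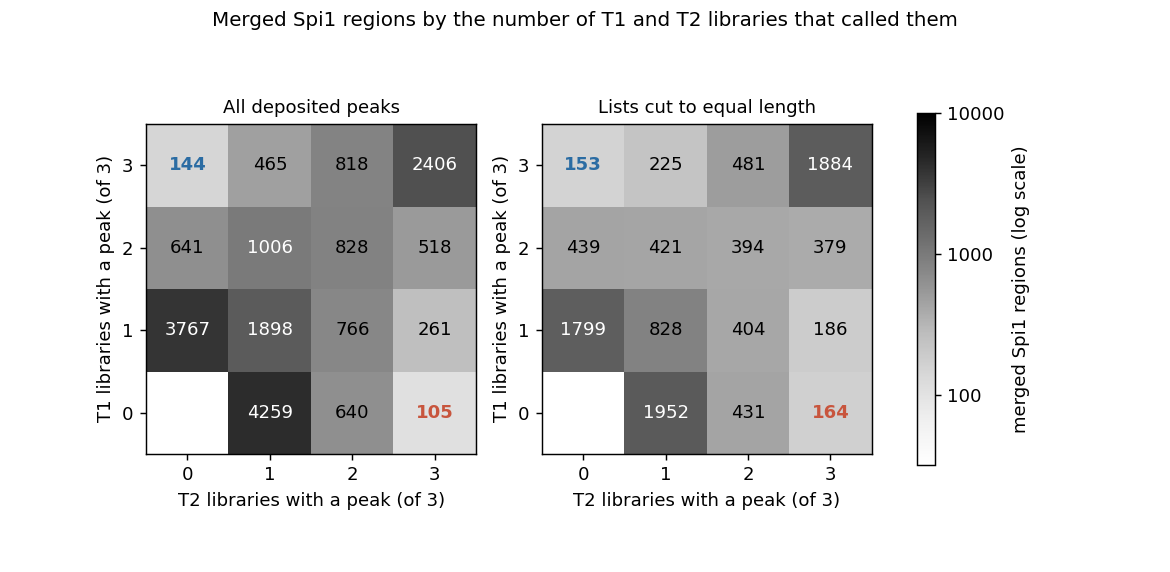
Merged Spi1 regions by the number of T1 libraries (vertical) and T2 libraries (horizontal) with a peak, for all deposited peaks and for lists of equal length, with darker squares for larger counts on a log scale. T1-only regions (144 and 153) stand in the top left corner and T2-only regions (105 and 164) in the bottom right, both far smaller than the 2406 and 1884 regions of all 6 libraries.

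T1-only and T2-only regions ranked lower in their lists than the regions called in all 6 libraries. Peaks were ranked in each library by −log10 p, and a region was described by the lowest of its 3 percentiles. The median of this value was 24.4 for T1-only and 26.1 for T2-only regions, against 58.4 for the regions called in all 6, whose lowest is taken over 6 libraries. The lowest of several percentiles is low for any region; the median of the mean percentile was 42.1, 46.0 and 77.0 in the same order. The lowest percentile was above 50 for 28 T1-only and 26 T2-only regions. On promoter windows its median was 9.08 for the 12 T1-only and 23.1 for the 9 T2-only regions. Elsewhere it was 25.9 and 28.4. Median fold enrichment of the T1-only regions was 5.54, 5.30 and 5.07 in T1 replicates 1 to 3, where all peaks had 5.59, 5.54 and 5.24. For the T2-only regions it was 6.69, 5.78 and 5.33 in T2 replicates 1 to 3, where all peaks had 5.84, 5.81 and 5.68, so the members exceeded their list in T2 replicate 1 alone. These values describe regions chosen by the same lists and carry no test. A peak of the other side lay within 1 kb of 13 T1-only and 6 T2-only regions.

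The strongest T2-only region lay inside Jak1, a tyrosine kinase of cytokine receptors, at chr4:101172728-101173273 (mm10). Its fold enrichment was 13.3, 13.8 and 10.9 in T2 replicates 1 to 3, in the 96.0th, 94.6th and 89.9th percentile, and none of the T1 lists had a peak there. Inside Rps6ka5, a kinase of histones and CREB, a region at chr12:100615143-100615552 had folds of 9.43, 8.81 and 9.65. Both regions were also called in all 4 KO-iMOS libraries and in none of the 6 Bcl11a libraries. A region 4377 bp from Gsdmd, the pore-forming protein of pyroptosis, had folds of 9.39, 8.25 and 7.94, and one inside Parvb, an integrin-linked actin adaptor, had 11.01, 9.65 and 8.29. The Gsdmd region was also called in 4 Bcl11a and 4 KO-iMOS libraries. Inside Abcc1, an export pump of drugs and leukotriene C4, folds were 9.52, 7.36 and 7.12. Inside Rgs3, a regulator of G protein signalling, they were 9.80, 6.69 and 8.50. The other leading T2-only regions lay inside Mogat1 and Ky, 7078 bp from Slc17a2, and between 10456 and 52472 bp from Olfr878, Gm14548 and Slc1a3. Of these 12 regions 7 lay inside a gene and 0 on a promoter window.

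The strongest T1-only region inside a gene was in Map3k20, a stress-activated kinase, at chr2:72291183-72291439. Its fold enrichment was 8.81, 9.48 and 10.4 in T1 replicates 1 to 3, in the 82.7th, 85.8th and 91.8th percentile. Only a region on chromosome Y, 74461 bp from the predicted gene Gm52481, ranked higher, and it had a Bcl11a peak in 5 of 6 libraries. Inside Plekhm3, a scaffold protein with PH domains, a region at chr1:64925771-64926107 had folds of 7.43, 7.61 and 6.75. Inside Rin2, an exchange factor for Rab5, folds were 8.55, 7.29 and 6.81 at chr2:145812655-145813310, and no other library of the series had a peak there. Inside Lrmp, a membrane protein of lymphoid cells, they were 9.29, 8.31 and 6.45. The other leading T1-only regions lay inside Thada, Abhd6, Rab8b and Arrdc4, inside Mknk1, a kinase of the translation factor eIF4E, inside Aff1, a subunit of the super elongation complex, and 6468 bp from Serpinb8, a protease inhibitor. Of these 12 regions 10 lay inside a gene and 0 on a promoter window. All 24 leading regions were also called on 1 side alone with lists of equal length. A T2 peak lay within 1 kb of the T1-only regions at Gm52481, Abhd6 and Serpinb8. No leading T2-only region had a T1 peak that close.

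**Figure D3:**
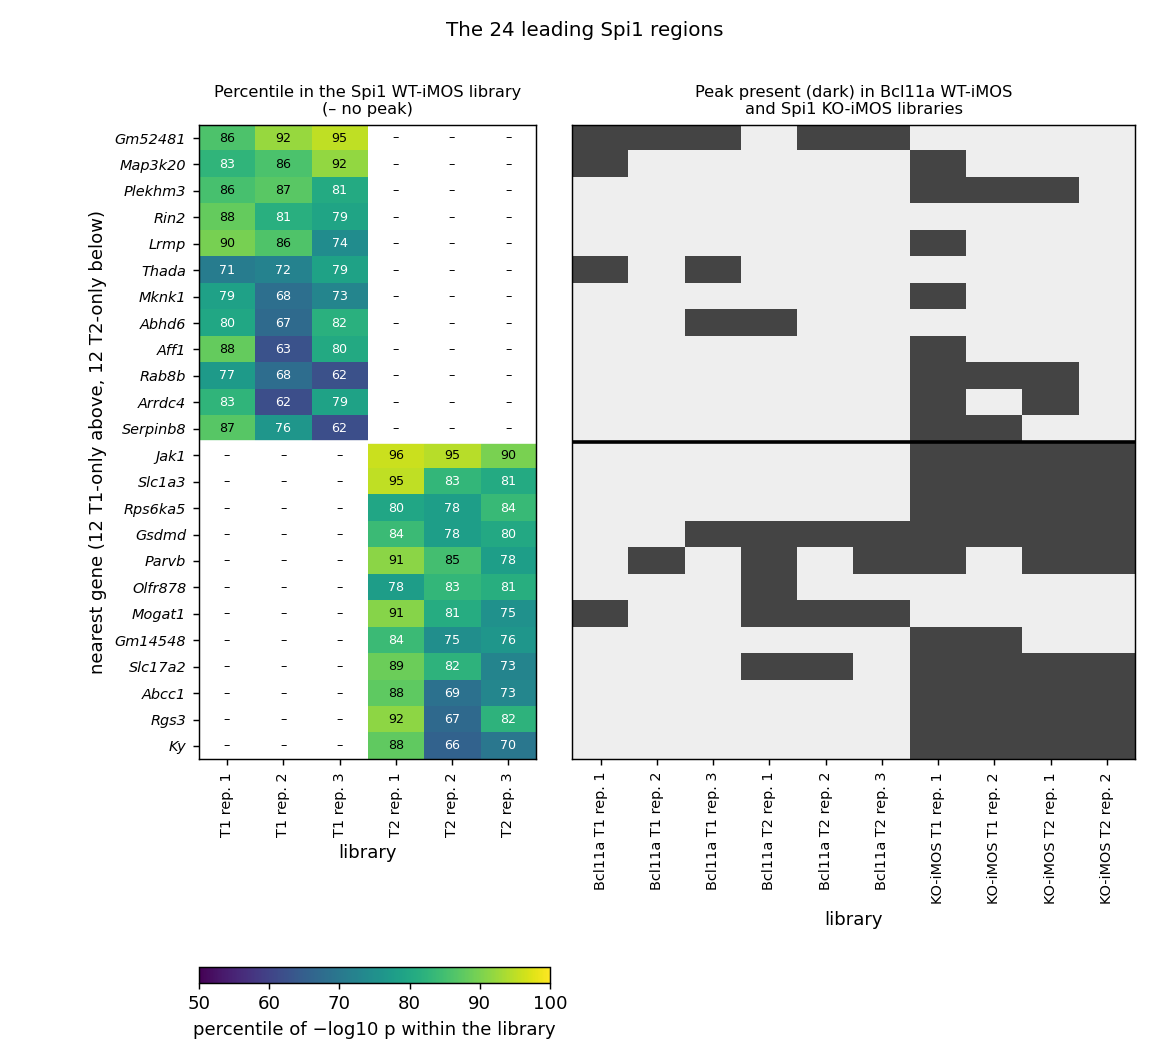
The 12 leading T1-only (top) and 12 leading T2-only (bottom) Spi1 regions, named by the nearest gene, with the percentile of −log10 p in each of the 6 Spi1 WT-iMOS libraries at left and the presence of a peak in the other 10 libraries at right. In KO-iMOS 8 of the T2-only regions had a peak in all 4 libraries and 0 of the T1-only regions did. Over the full sets it was 46 of 105 T2-only and 6 of 144 T1-only regions, and 1492 of the 2406 called in all 6 WT-iMOS libraries.

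Spi1 peaks of KO-iMOS covered a larger share of the T2-only than of the T1-only regions in 4 of 4 libraries. Of the T2-only regions 78 and 69 of 105 had a Spi1 peak in KO-iMOS T1 replicates 1 and 2 (74.3% and 65.7%), and 75 and 50 had one in KO-iMOS T2 replicates 1 and 2 (71.4% and 47.6%). Of the T1-only regions the same libraries had a peak in 54, 34, 19 and 7 of 144 (37.5%, 23.6%, 13.2% and 4.86%). For regions called in exactly 3 of the 6 WT-iMOS libraries the shares were 63.9%, 56.2%, 52.1% and 29.1%, so in each KO-iMOS library the T2-only share lay above this background and the T1-only share below it. All 4 KO-iMOS libraries had a peak in 46 of 105 T2-only and 6 of 144 T1-only regions, and in 1492 of the 2406 called in all 6 WT-iMOS libraries. At least 1 KO-iMOS library had a peak in 82 T2-only and 56 T1-only regions, and in 1365 of the 2021 called in exactly 3. The T2-only share less the T1-only share was 36.8 and 42.1 percentage points in KO-iMOS T1 and 58.2 and 42.8 in KO-iMOS T2. It was above 0 in each of them (exact sign-flip permutation p = 0.125, two-sided, the smallest that 4 libraries allow, a test added after the data were seen). Between KO-iMOS T2 and T1 it differed by 11.1 points (exact permutation p = 0.33, the smallest that 2 against 2 allow). Without KO-iMOS T2 replicate 1 the 11.1 points became 3.31, without KO-iMOS T2 replicate 2 they became 18.8. With lists of equal length the difference of shares was 29.2 and 41.8 points in KO-iMOS T1 and 56.9 and 58.8 in KO-iMOS T2, 22.3 points apart (exact permutation p = 0.33).

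The KO-iMOS lists were not alike in length: T1 replicates held 20241 and 13053 peaks and T2 replicates 14882 and 6372. A longer list raises both shares, and its part in the size of the difference was not tested. Leading regions followed the same order, with a KO-iMOS T1 peak in 8 of 12 T1-only and 10 of 12 T2-only regions and a KO-iMOS T2 peak in 3 and 9.

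Bcl11a covered a smaller share of the T2-only than of the T1-only regions in 3 of 3 Bcl11a T1 libraries and in 1 of 3 Bcl11a T2 libraries. In Bcl11a T1 replicates 1 to 3 a peak lay on 49, 48 and 51 of the 144 T1-only regions (34.03%, 33.3% and 35.4%) and on 14, 10 and 21 of the 105 T2-only regions (13.3%, 9.52% and 20%). In Bcl11a T2 replicates 1 to 3 a peak lay on 45, 8 and 21 T1-only regions (31.3%, 5.56% and 14.6%) and on 31, 21 and 22 T2-only regions (29.5%, 20% and 21.0%). For regions called in exactly 3 of the 6 Spi1 WT-iMOS libraries the shares were 21.5%, 27.1% and 31.5% in Bcl11a T1 and 22.1%, 10.4% and 14.4% in Bcl11a T2. The T1-only share lay above this background in 3 of 3 Bcl11a T1 and 2 of 3 T2 libraries, and the T2-only share lay below it in 3 of 3 T1 and above it in 3 of 3 T2 libraries. The T2-only share less the T1-only share was therefore -20.7, -23.8 and -15.4 points in Bcl11a T1 libraries and -1.73, 14.4 and 6.37 points in Bcl11a T2 libraries. The groups did not overlap, and their means of -19.97 ± 4.24 and 6.36 ± 8.09 points (SD, n = 3) differed by 26.3 points (exact permutation p = 0.1, the smallest that 3 against 3 allow). With regions from lists of equal length the values were -10.5, -4.76 and -4.11 points in Bcl11a T1 and 14.2, 13.3 and 12.5 points in Bcl11a T2, 19.8 points apart and again without overlap (exact permutation p = 0.1). There the T1-only shares of 20.9%, 25.5% and 33.99% in Bcl11a T1 libraries lay below their background of 28.5%, 33.2% and 38.6%, and in Bcl11a T2 libraries the T1-only shares were below it as well, so that the position of the T1-only regions against the background turned with list length. Bcl11a T1 lists held 4300 to 7382 peaks and T2 lists 2719 to 4786.

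**Figure D4:**
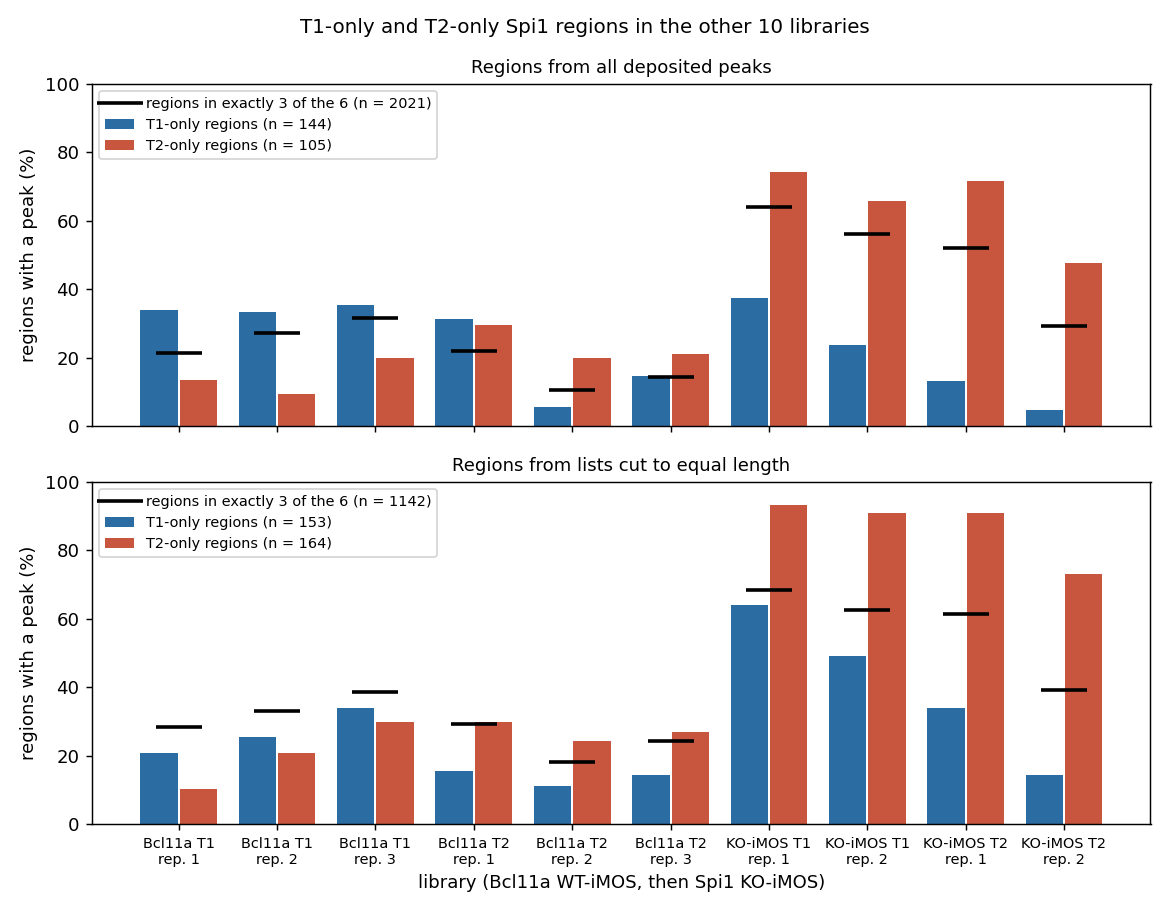
Share of T1-only and T2-only Spi1 regions with a peak in each Bcl11a WT-iMOS and Spi1 KO-iMOS library (bars), and of regions called in exactly 3 of the 6 Spi1 WT-iMOS libraries (black marks), for all deposited peaks (top) and lists of equal length (bottom). T2-only bars stand above T1-only bars in each KO-iMOS library (in KO-iMOS T1 replicate 1, 74.3% against 37.5%) and below them in each Bcl11a T1 library.

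A larger share of the regions without a KO-iMOS peak had a Bcl11a peak, on both sides and in the background. Of the 144, 88 had no KO-iMOS peak, and 66 of those 88 (75%) had a Bcl11a peak in at least 1 library. Of the 56 T1-only regions with a KO-iMOS peak 17 (30.4%) had one. Among T2-only regions 19 of the 23 without a KO-iMOS peak (82.6%) and 28 of the 82 with one (34.1%) had a Bcl11a peak. Among all regions called in exactly 3 libraries the same shares were 506 of 656 (77.1%) and 556 of 1365 (40.7%), so this order is not particular to the one-sided regions. Regions in neither kind of library numbered 22 of 144 T1-only and 4 of 105 T2-only regions. Among the 2021 regions called in exactly 3 libraries, these are the 656 without a KO-iMOS peak less the 506 with a Bcl11a peak. In the full lists the one-sided regions without a KO-iMOS peak lay farther from genes. Of the 88 T1-only ones 46.6% were inside a gene and 39.8% over 10 kb from one, against 62.5% and 23.2% of the 56 with a KO-iMOS peak. The T2-only regions had the same order. Inside a gene were 39.1% of the 23 without and 64.6% of the 82 with a KO-iMOS peak. Over 10 kb from one were 43.5% and 19.5%. At equal length 48.9% of the 47 T1-only regions without and 53.8% of the 106 with a KO-iMOS peak lay inside a gene. For T2-only regions it was 28.6% of 7 and 60.5% of 157. These distances are not given for regions called in exactly 3 libraries, so the order is not shown to be particular to one-sided regions.

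Most T1-only regions on promoters had a KO-iMOS peak. At least 3 of the 4 KO-iMOS libraries had a peak in 8 of the 12 T1-only regions on promoters and in 11 of the 132 elsewhere. The promoters of Tardbp, Spata5, Yipf6, Psme3ip1 with Rspry1, and Mrpl50 with Zfp189 carried one in all 4, and those of Ctcf and Yy1 in 3. Of the T2-only regions 7 of the 9 on promoters and 61 of the 96 elsewhere had a peak in at least 3. Chst11, Arhgap25, Il12rb2 and Zfp963 carried one in all 4. These are counts over regions that share the same 4 libraries and carry no test. The same split is not given for regions called in exactly 3 libraries. The counts are therefore not shown to be particular to the one-sided regions.

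Regions of both sides lay mostly inside genes and seldom at gene boundaries. Of the T1-only regions 76 of 144 (52.8%) and of the T2-only regions 62 of 105 (59.0%) lay inside a protein-coding gene, as did 56.4% of regions called in exactly 3 libraries. The middle of the region lay within 1 kb of a gene boundary for 13 T1-only (9.03%) and 12 T2-only regions (11.4%), against 21.5% of those in exactly 3 libraries and 23.6% of those in all 6. Both sets thus had fewer regions near gene boundaries than either background, and the promoter shares of 8.57% and 8.65% stood below 19.1% and 21.0% in the same way. Regions with 2 T1 libraries alone had 16.5% near a boundary and 11.3% on promoters. Those with 2 T2 libraries alone had 16.4% and 13.0%. These also stood below both backgrounds, though above the T1-only and T2-only shares, so the order is not particular to T1-only and T2-only regions. Over 50 kb from any gene were 19 T1-only (13.2%) and 12 T2-only regions (11.4%), near the 14.4% and 14.2% of the backgrounds. With lists of equal length 12.4% of T1-only and 16.5% of T2-only regions had their middle within 1 kb of a boundary, against 18.7% in exactly 3 and 24.8% in all 6 libraries. There, regions with 2 T1 or 2 T2 libraries alone had 14.8% and 15.3%, so the T2-only share did not lie below theirs. T1-only and T2-only regions share libraries and were chosen from the same lists, so the shares are descriptions.

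**Figure D5:**
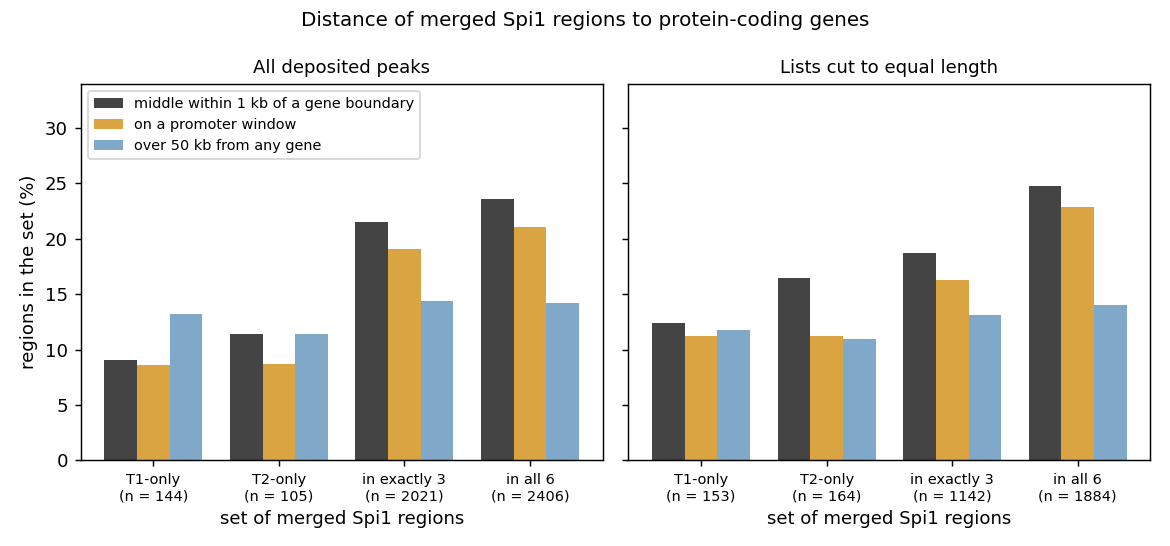
Share of T1-only and T2-only regions, and of regions called in exactly 3 or all 6 libraries, with the middle within 1 kb of a gene boundary, on a promoter window, or over 50 kb from any protein-coding gene. T1-only and T2-only bars for the first 2 classes (9.03% and 11.4% near a boundary in the full lists) lie below those of the regions called in all 6 (23.6%).

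At gene level, a locus was taken as the gene with 10 kb on either side, which gathers all its peaks. Of 21887 protein-coding genes 75 (0.343%) had a peak at the locus in all 3 T1 and no T2 libraries and 46 (0.21%) the reverse. T1-only loci included Ahr, the aryl hydrocarbon receptor, C3ar1, the receptor of complement C3a, Gadd45b, a stress response gene, Tsc1, an inhibitor of mTOR signalling, and the Yy1 and Ctcf loci named above. T2-only loci included Akt1, the kinase downstream of PI3K, Hes1, a Notch target repressor, Dusp4, a MAP kinase phosphatase, Abcg1, a cholesterol exporter, Nrp2, a semaphorin receptor, and Il12rb2; these examples were chosen after their values were seen. Equal-length lists gave 84 T1-only (0.384%) and 95 T2-only loci (0.434%), so the order of the counts turned here too. None of the T1-only loci named above met the rule there. Of the named T2-only loci Akt1 and Nrp2 did, and Hes1, Dusp4, Abcg1 and Il12rb2 did not. The T2-only loci of equal-length lists included the neighbouring C1qa, C1qb and C1qc, which share 10 kb flanks, Havcr2, Pdcd1, Fgr and Jak1. None of these loci was T2-only in the full lists, where each also had a T1 peak. The T2-only locus count was 171 without T1 replicate 1, 92 without T2 replicate 2 and 230 without T2 replicate 3. The T1-only locus count was 186 without T1 replicate 2, 211 without T1 replicate 3 and 368 without T2 replicate 1.

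Loci of listed genes were seldom on 1 side alone, and so were loci of all protein-coding genes (0.21% T2-only and 0.343% T1-only). The counts of listed genes are therefore not shown to be particular to them. Among the loci of 298 genes in 11 lists of lineages and functions, that of Zap70, the kinase of the T cell receptor, was T2-only, and 0 were T1-only. The Zap70 region lay at chr1:36754010-36754634, inside the neighbouring gene 4933424G06Rik, with folds of 8.22, 5.38 and 4.41 in T2 replicates 1 to 3 and a peak in all 4 KO-iMOS libraries. A region inside Irf2, an interferon regulatory factor, was T2-only with folds of 5.15, 4.69 and 4.26, and one 7332 bp from Xcr1, a chemokine receptor of dendritic cells, was T1-only with folds of 6.40, 6.02 and 3.81. The Irf2 and Xcr1 loci as a whole had a peak in 3 of 3 T1 and 3 of 3 T2 libraries. This held in full and in equal-length lists. With lists of equal length the Irf2 region kept 1 T2 library and the Xcr1 region 2 T1 libraries. Both still had none of the other side, but neither met the rule. There Rb1, the retinoblastoma protein, was the T1-only list locus and Zap70 and Ccnd2, a D type cyclin, were the T2-only ones. The Rb1 and Ccnd2 regions had a peak of the other side in the full lists, and the Ccnd2 region was called in 5 of 6 Bcl11a libraries. The Spi1 locus itself had a peak in 6 of 6 libraries, in full and in equal-length lists. The Bcl11a locus had one in T2 replicates 1 and 3 and in 0 of 3 T1 libraries, and with equal-length lists in T2 replicate 3 alone.

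Counting each list gene by whether more T2 or more T1 libraries had a peak at its locus gave 6 against 5 of 31 stem and progenitor genes and 7 against 7 of 40 granulocyte and monocyte genes. It gave 11 against 8 of 35 lymphoid genes, 6 against 3 of 28 erythroid genes, 6 against 5 of 24 megakaryocyte and platelet genes and 2 against 0 of 17 mast cell, basophil and eosinophil genes. For dendritic genes it gave 2 against 6 of 20, for interferon and inflammation genes 3 against 7 of 30, for cell cycle and survival genes 6 against 7 of 29, for housekeeping genes 5 against 4 of 24 and for genes of non-haematopoietic tissue 2 against 3 of 30. With lists of equal length the order turned for lymphoid genes (6 against 7), cell cycle and survival genes (4 against 3), housekeeping genes (2 against 3) and non-haematopoietic genes (3 against 1). It was then even for stem and progenitor genes (4 against 4) and megakaryocyte and platelet genes (3 against 3), and 5 against 6 for granulocyte and monocyte genes. Over all protein-coding genes 2711 (12.4%) had more T2 and 3164 (14.5%) more T1 libraries. Loci with a peak in all 6 libraries made up 32.3% of stem and progenitor genes, 27.5% of granulocyte and monocyte genes and 35.0% of dendritic genes, against 7.14% of erythroid genes, 3.33% of non-haematopoietic genes and 10.4% of all genes.

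Ptk2b, the tyrosine kinase Pyk2 of blood and nerve cells, was the only gene with 2 T2-only regions inside it, at chr14:66240054-66240427 and chr14:66276991-66277476, and no gene held 2 T1-only regions. It also held regions called in all 6 libraries. The 5 regions called in all 6 libraries with the highest mean percentile had fold enrichments of 15.6 to 41.5. They lay 16867 to 1034581 bp from the nearest gene, and each was called in all 6 Bcl11a and in 3 or 4 KO-iMOS libraries. Their lowest −log10 q ran from 2596 to 7759, against a median of 8.84 for the regions called in all 6 libraries. No filter for regions of high signal whatever the target was applied here, so these 5 are not shown to be Spi1 sites.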

How the data were processed

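Peaks were called per library and deposited by the authors as narrowPeak lists; Bowtie2, SAMtools, MACS2 and mm10 are named per the submitters' processing notes; whether peaks were called against a control was not given in the sources used here. Lines of the deposited lists hold an integer score, a fold enrichment (ratio over the caller's background) and a −log10 p-value and −log10 q-value. These are the authors' values, used only to rank, filter or describe peaks within a list. Every −log10 q exceeded 2.

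Peaks on assembled chromosomes (48113 of 48953) were merged with Python 3.11.15, pandas 2.3.3, numpy 2.4.6 and scipy 1.17.1, with plots by matplotlib 3.10.9. Merging and calling were tested on simulated data. Genes came from a RefSeq table on GRCm38.p6, the assembly of mm10, without strand or exons, so positions are inside a gene or at a distance. Promoter windows, added after the files were seen, hold 27025 genes; regions on chromosome 18 were left out of promoter shares. Regions were compared by counts, and values per library by two-sided exact permutation. The named regions were the 12 per side with the highest lowest percentile, up to 4 per side at or within 10 kb of a gene of each list, the 5 leading that also held at equal length, the 5 strongest called in all 6, list loci on 1 side alone, and Spi1 and Bcl11a. Members, lists and rules were chosen with earlier results of these data known. Of 300 list genes 298 were found. A list locus that met the rule is not reported here. Alternatives were equal list length, −log10 q of at least 5, merging at 100 bp, no other-side peak within 1 kb, unplaced contigs, other locus sizes, and each library left out.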

Additional observations from a re-analysis of the deposited data

How the results depend on the processing

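The region counts rest on list length and on single libraries. With lists of equal length the T2-only regions numbered 164 instead of 105 and the T2-only gene loci 95 instead of 46, while both T1-only counts stayed within 1.5 times (153 and 84). Requiring −log10 q of at least 5 gave 125 T1-only and 93 T2-only regions, and counts stayed within 1.5 times too when merging asked for 100 bp, when no peak of the other side lay within 1 kb and when unplaced contigs were added. Without chromosome Y and the clusters nearest to Speer4 and defensin genes, an alternative chosen after seeing the data, 137 and 102 remained. Gene loci without flanks gave 55 and 37, and with 50 kb flanks 112 and 48. Leaving out 1 library gave 130 to 572 T2-only regions, 188 to 517 T1-only regions, 57 to 230 T2-only loci and 94 to 368 T1-only loci; the rule then asks for fewer libraries. The difference in peaks per library ran from -2284 to 1312.5 and that in the share near gene boundaries from -2.02 to 1.47 points, across 0 in both cases. For Bcl11a it ran from 22.3 to 30.4 points, and for KO-iMOS, where leaving out was added after seeing the data, from 3.31 to 18.8.

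Replicate numbers match across T1 and T2, but the labels do not say that a number marks a shared mouse or day. Deviations of same-numbered libraries correlated at 0.274, 0.0346 and 0.181 over regions, and T2 replicate 2 correlated best with T1 replicate 3 (0.0574), so the numbers were not taken as pairs, although same-numbered lists shared more covered bases (Jaccard index 0.393) than other pairs of T1 and T2 lists (0.332) or pairs within a group (0.362). With the replicate number as a block the sign-flip p was 0.75 for peaks per library (-186) and for the share near boundaries (-0.143 points), 0.25 for Bcl11a (26.3 points) and 0.5 for KO-iMOS (11.1 points), and no call changed, since none of these designs can pass 0.05. Of the 27 regions named at full length, 25 were called in 3 against 0 libraries with lists of equal length and 24 with −log10 q of at least 5; the others lost libraries of their own side and gained none of the other.

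Read depth is unknown, and a region without a peak is not shown to lack signal. The lowest −log10 q among members was 2.07 on both sides. Presence in 3 against 0 libraries is a description and passes no test.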

Other observations

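Some one-sided regions lay close together. Within 500 kb of each other, 4 T1-only regions (chr5:15604673-15690849) had Speer4d or Speer4c, of a family of near-identical copies, as the nearest gene. Those nearest to Speer4d lay 14096 and 29250 bp from it. Another 3 lay on chromosome Y (chrY:90793332-90819905). None of these 7 had a KO-iMOS peak, and each had a Bcl11a peak in 1 to 5 of 6 libraries. On the T2 side 3 regions (chr8:20441161-20827421) had Gm15319, Gm21119 and Defb33, in a block of defensin genes, as nearest genes. They had a Bcl11a peak in 3 or 4 libraries and a KO-iMOS peak in at most 1. Reads in such copies cannot always be placed; the sources used here do not say how they were treated.

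With lists of equal length 3 T2-only regions gathered at chr5:135572732-135962868, with Ccl24, Por and Ssc4d as nearest genes. Another 3 gathered at chr9:58256173-58402187, with Stoml1, Loxl1 and Tbc1d21 as nearest genes. Each cluster had at least 1 region called in all 4 KO-iMOS libraries. Ccl24 encodes eotaxin 2, a chemokine of eosinophils. Chst11 held 2 T2-only regions at equal length, and both were called in all 4 KO-iMOS libraries.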
